A study of Mus musculus with 15 samples.

Results

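The cyclin-dependent kinase (CDK) inhibitors are the 7 genes Cdkn1a, Cdkn1b, Cdkn1c, Cdkn2a, Cdkn2b, Cdkn2c and Cdkn2d. They were taken by gene symbol from the 54532 genes in the deposited table, and each symbol named 1 row. All 7 were among the 15590 genes with enough counts to be tested. The cells were C57BL/6 mouse bone marrow mesenchymal stem cells (BM-MSCs), bought from a supplier and used within a few passages, and every group had received 5 Gy of radiation. RNA was sequenced 48 h later in 5 groups of 3 libraries. The Gel group was co-cultured with an alginate hydrogel that carries the cell-binding RGD peptide. The Gel/IL-12 group had the same gel with interleukin-12, the Gel/Laponite group had it with the nanoclay Laponite, and the Gel/Laponite@IL-12 group had it with IL-12 held on Laponite. The IR-Con group was irradiated and had no gel. There was no group without radiation, so the response of the inhibitors to the dose itself was not measured, and all comparisons are between irradiated cells. Nothing in the labels says whether the libraries of a group came from separate cultures, so p-values measure the spread between these libraries, which may be technical.

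CDK inhibitors are small proteins that stop cyclin and CDK complexes from driving the cell cycle. The Cip/Kip proteins p21 (Cdkn1a), p27 (Cdkn1b) and p57 (Cdkn1c) bind complexes of CDK2 and of other CDKs with their cyclins. The INK4 proteins p16 (Cdkn2a), p15 (Cdkn2b), p18 (Cdkn2c) and p19 (Cdkn2d) bind CDK4 and CDK6 and keep the D-type cyclins from them. After radiation p53 switches on Cdkn1a, which arrests the cell, and lasting expression of Cdkn1a and Cdkn2a is a mark of senescent cells. Cdkn2a also encodes ARF, a protein read from another first exon and another frame, which blocks Mdm2 and so stabilizes p53.

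Against IR-Con, each of the gels had less mRNA of the 3 Cip/Kip genes and more of Cdkn2d in edgeR. The other INK4 genes did not pass the test with all IR-Con libraries and the filter on low counts. Of all tested genes, 21.5% to 22.6% were lower and 22.9% to 24% higher in a single gel. The call on Cdkn1c was lost in limma's voom for all gels together (adjusted p = 0.0569) and for each gel but Gel/Laponite@IL-12. Among the gels themselves, no inhibitor passed edgeR's test for IL-12 or for Laponite with all libraries and the filter on low counts. For Laponite, Cdkn1a did pass in voom (adjusted p = 0.0049) and in edgeR without the filter on low counts (adjusted p = 0.00962). It also passed in edgeR with only the 12 gel libraries (adjusted p = 0.000197), where Cdkn2a passed too.

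The 7 genes lie on 5 chromosomes of GRCm38 in the GENCODE M21 annotation, matched by gene identifier. Cdkn1a (ENSMUSG00000023067) is at chr17:29090976-29100727 on the plus strand, Cdkn1b (ENSMUSG00000003031) at chr6:134920401-134925513 on the plus strand, and Cdkn1c (ENSMUSG00000037664) at chr7:143458339-143461050 on the minus strand. Cdkn2a (ENSMUSG00000044303) is at chr4:89274471-89294653, Cdkn2b (ENSMUSG00000073802) at chr4:89306299-89311039 and Cdkn2c (ENSMUSG00000028551) at chr4:109660876-109667189, all on the minus strand. Cdkn2d (ENSMUSG00000096472) is at chr9:21288410-21291407 on the minus strand. Cdkn2a and Cdkn2b are direct neighbours, with 11645 bases between them. Of the 50-base windows in their transcripts, 100% were found in no other annotated gene for Cdkn1b and for each INK4 gene, 91.5% for Cdkn1a and 75.1% for Cdkn1c. The shared windows of Cdkn1c belong to the antisense gene Gm44732, which had a count of 0 in every library. The strand setting of the counting is not given in the sources used here, so reads of Cdkn1c and of that antisense gene could not be told apart. The count of Cdkn2a adds up both of its annotated transcripts, so ARF and p16 mRNA were not separated.

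Promoter sequences from RefSeq (GRCm38.p6, from 250 bases before to 50 bases after a start site) are shown for the 2 inhibitors that differed most from IR-Con, Cdkn1a and Cdkn2d, and for Cdkn1b and the ARF start of Cdkn2a, with matches to known motifs in capitals. Cdkn1c is named only. In the window at the upstream start of Cdkn1a, at chr17:29090729-29091028 on the plus strand, the capitals mark the core of a p53 element, CATGNNNNNNCATG. In the window at its downstream start (chr17:29093519-29093818, plus strand) and in that of Cdkn2d (chr9:21291160-21291459, minus strand) they mark the GC box GGGCGG. In that of Cdkn1b (chr6:134920151-134920450, plus strand) they mark GGGCGG and CCAAT, and in that of the ARF start (chr4:89294570-89294869, minus strand) an E2F element.
Cdkn1a upstream start: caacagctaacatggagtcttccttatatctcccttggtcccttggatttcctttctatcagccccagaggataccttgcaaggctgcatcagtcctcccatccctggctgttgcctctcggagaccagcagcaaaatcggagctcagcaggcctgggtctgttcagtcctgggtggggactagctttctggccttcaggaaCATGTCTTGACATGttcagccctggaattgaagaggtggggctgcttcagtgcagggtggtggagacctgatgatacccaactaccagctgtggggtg
Cdkn1a downstream start: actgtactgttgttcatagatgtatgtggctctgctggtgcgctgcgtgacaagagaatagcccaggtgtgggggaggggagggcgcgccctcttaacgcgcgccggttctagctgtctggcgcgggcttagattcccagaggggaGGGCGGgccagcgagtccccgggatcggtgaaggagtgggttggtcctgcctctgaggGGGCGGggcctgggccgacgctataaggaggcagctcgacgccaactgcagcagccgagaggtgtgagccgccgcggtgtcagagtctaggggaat
Cdkn1b: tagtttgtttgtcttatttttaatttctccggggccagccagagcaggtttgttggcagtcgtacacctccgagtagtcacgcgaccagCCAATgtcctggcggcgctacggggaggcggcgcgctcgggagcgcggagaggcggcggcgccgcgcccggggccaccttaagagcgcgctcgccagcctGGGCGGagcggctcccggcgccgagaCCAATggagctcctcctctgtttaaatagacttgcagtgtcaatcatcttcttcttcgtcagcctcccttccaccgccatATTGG
Cdkn2a ARF start: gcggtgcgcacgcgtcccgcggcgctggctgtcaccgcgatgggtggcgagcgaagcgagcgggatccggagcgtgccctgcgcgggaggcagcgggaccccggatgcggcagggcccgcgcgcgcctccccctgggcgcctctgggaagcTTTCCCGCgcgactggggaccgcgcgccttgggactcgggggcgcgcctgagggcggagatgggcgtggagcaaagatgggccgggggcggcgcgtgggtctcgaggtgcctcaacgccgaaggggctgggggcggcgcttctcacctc
Cdkn2d: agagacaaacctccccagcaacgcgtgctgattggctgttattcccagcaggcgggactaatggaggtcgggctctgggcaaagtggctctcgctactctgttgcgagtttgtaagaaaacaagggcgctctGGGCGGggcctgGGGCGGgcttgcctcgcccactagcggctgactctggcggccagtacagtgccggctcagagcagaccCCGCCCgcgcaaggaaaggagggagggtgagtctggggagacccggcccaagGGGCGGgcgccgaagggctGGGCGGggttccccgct

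Motifs were searched on both strands in the 9 windows of the 6 inhibitors with an entry. The p53 core was in the upstream Cdkn1a window alone, 34 bases before that start and 2824 bases before the downstream start, and 0.712% of all 32851 promoter windows held it. E2F elements (TTTCCCGC, TTTCGCGC, TTTGCCGC or TTTGGCGC) were in the ARF window alone, and in 2.26% of all windows. GGGCGG was in 7 of the 9 windows and in 35.7% of all windows, and the window of Cdkn2d held 5 copies. CCAAT was in 4 of the 9 and in 37.4% of all, and the FOXO element GTAAACA was in none of the 9 and in 3.65% of all. A match on the other strand stands in the printed windows as its reverse complement. A match describes the letters only, and binding was not measured. The primers that the study designed for CDKN2D show which transcript its PCR reads, and the capitals mark bases of the second exon.
Cdkn2d forward primer: gcaaggaaaggagggaggTC
Cdkn2d reverse primer: gtcttgccaaagcggttcag
They matched 1 of the 3 annotated Cdkn2d transcripts, with 18 bases of the forward primer in exon 1 and 2 in exon 2, and gave a product of 165 bases, whereas the count of Cdkn2d covers all of its transcripts.

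The libraries held 14506459 to 17818982 counts. Levels are given as CPM, the count scaled to a common library size with TMM, a factor that evens out composition. The coefficient of biological variation over all genes was 3.52% to 4.06% in the gel groups and 17.1% in IR-Con. IR-Con replicate 3 stood apart. Its chi-square per gene against the other IR-Con libraries was 23 to 28.5, against 11.3 between replicates 1 and 2, and 1.91% of its counts were mitochondrial, against 2.49% and 2.56% in those 2. Mitochondrial genes took 2.79% to 3.06% of counts in the gels, and the nuclear RNA Malat1 took 0.0568% to 0.182% in the gels and 0.356% to 0.542% in IR-Con. The part of these shares in the results was not tested. No pair of libraries within a group agreed within sampling noise. For this reason each comparison with IR-Con is also given without replicate 3 where that changes a call, and with limma's voom with a weight for each group, which lets IR-Con vary more than the gels. Of 10 mesenchymal markers all were detected, though Eng (at most 5.78 CPM) and Lepr (at most 3.07 CPM) were low. The sum of the 10 was 3180 to 3300 CPM in the gels and 3180 to 3630 CPM in IR-Con. In edgeR 2 of the 10 were higher and 5 lower in the gels, where 27.4% of all genes were higher and 27.6% lower. Single markers differed more than the sum, with log2 fold changes from -0.96 (Lepr) to 1.91 (Thy1). The sum of 9 macrophage and other blood cell markers was 13.1 to 17.3 CPM in the gels and 13.1 to 19 CPM in IR-Con. Ptprc, Adgre1, Itgam, Cd52 and Tyrobp were at or near 0, and Fcgr1 reached 0.486 CPM. Cd68 was at 8.38 to 11.4 CPM in the gels and 5.71 to 9.98 CPM in IR-Con. In the same order, Csf1r was at 2.57 to 4.57 and 3.27 to 6.33 CPM, and Lyz2 at 0.775 to 3.05 and 2.37 to 4.01 CPM. In edgeR Cd68 was higher and Lyz2 lower in the gels, and in voom only Lyz2 passed. The sums of 5 endothelial and 5 erythroid markers reached at most 10.1 and 0.254 CPM in the gels, and 7.29 and 0.0607 CPM in IR-Con.

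Levels between the genes were compared per transcript length, on the FPKM scale. In the 12 gel libraries the order of mean FPKM was Cdkn2a (303 ± 8.72), Cdkn1b (51.5 ± 2.9), Cdkn2b (37.1 ± 2.01), Cdkn2c (15.1 ± 0.965), Cdkn1a (10.8 ± 1.34), Cdkn2d (8.5 ± 0.897) and Cdkn1c (2.28 ± 0.304; SD, n = 12). The ranges of Cdkn2c and Cdkn1a overlapped in the gels, as did those of Cdkn1a and Cdkn2d, and the other neighbours were apart. In IR-Con the order was Cdkn2a (258 ± 77.1), Cdkn1b (60.6 ± 3.78), Cdkn2b (32.6 ± 5.52), Cdkn1a (21.1 ± 2.73), Cdkn2c (13.3 ± 1.71), Cdkn2d (4.47 ± 0.706) and Cdkn1c (3.06 ± 0.287; SD, n = 3), and no neighbours overlapped. Cdkn1a thus stood below Cdkn2c in the gels and above it in IR-Con. The summed FPKM of the INK4 genes was 347 to 377 in the gels, against 234, 295 and 396 in IR-Con replicates 1, 2 and 3, and most of it was Cdkn2a. Without Cdkn2a it was 56.3 to 64.3 in the gels, against 42.9, 54.6 and 53.6 in the same IR-Con libraries, which did not overlap. The kinases they bind, Cdk4 and Cdk6, were at 153 to 161 FPKM and 4.96 to 6.3 FPKM in the gels, and at 117 to 147 FPKM and 4.26 to 4.78 FPKM in IR-Con. The summed FPKM of the Cip/Kip genes was 61.2 to 71.2 in the gels and 82.4 to 87.8 in IR-Con, so these sums did not overlap. Cdk2, a kinase bound by the Cip/Kip proteins, was at 14.7 to 17 FPKM in the gels and 11.5 to 12.1 FPKM in IR-Con.

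**Figure D1:**
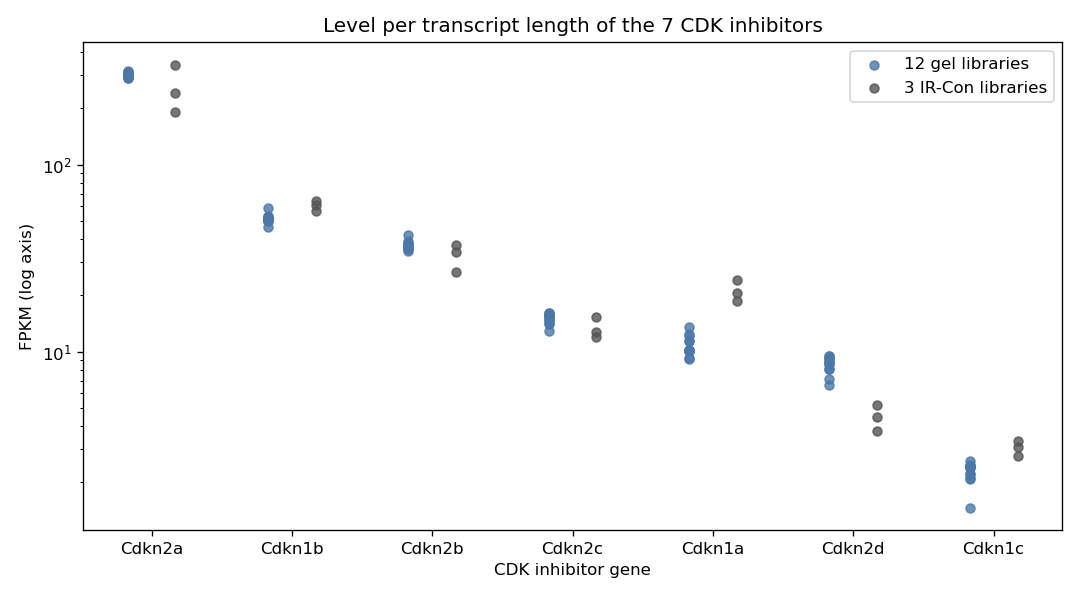
FPKM of the 7 CDK inhibitors on a log axis, ordered by level, with a point for each of the 12 gel libraries (left of each pair) and the 3 IR-Con libraries (right). Cdkn2a was the most abundant, with a mean of 303 FPKM in the gels and 258 FPKM in IR-Con, and Cdkn1c the least.

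The first comparison took all gel groups together, each with the same weight, against IR-Con and asked whether contact with a gel went with a change of the inhibitors. In edgeR's quasi-likelihood test, 3 of the 7 genes were lower in the gels and 1 was higher at an adjusted p under 0.05. Of all 15590 tested genes 27.6% were lower and 27.4% were higher, so the share of inhibitors called in either direction, 4 of 7, is close to the background. The median log2 fold change over all tested genes was -0.008. With voom and group weights, 2 inhibitors were lower and 1 higher, and the background was 16.5% lower and 16% higher. The 12 gel libraries and the 3 IR-Con libraries did not overlap in CPM for 4 inhibitors, 3 with the gels lower and 1 with the gels higher. Over all genes, 15.6% were without overlap and lower in the gels, and 18% without overlap and higher.

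**Figure D2:**
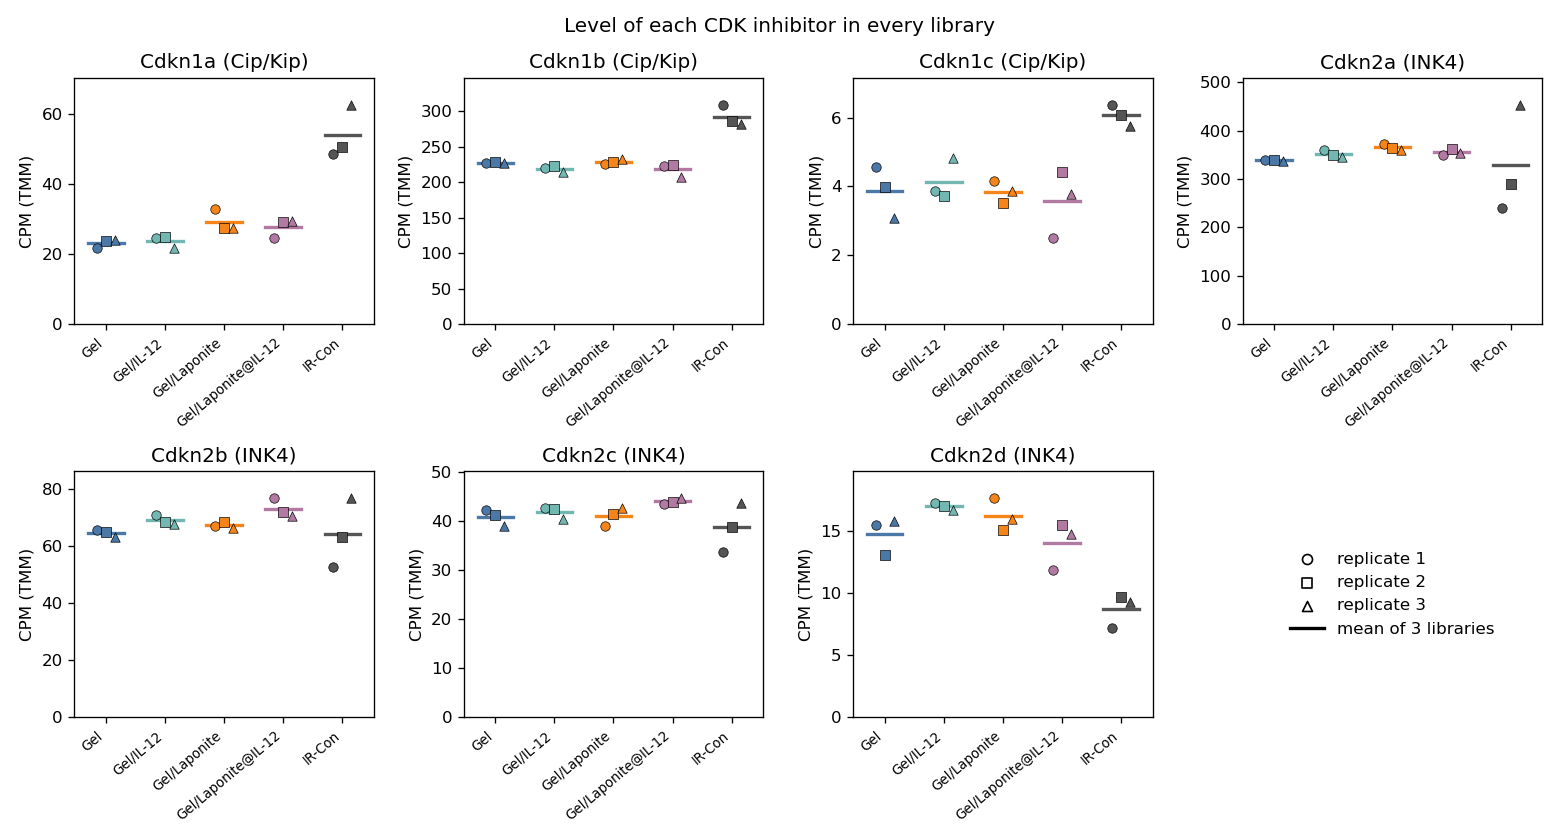
Level of each CDK inhibitor in CPM in every library, with the 4 gel groups left of IR-Con, a symbol for each replicate and a bar at the mean of 3 libraries. Cdkn1a, Cdkn1b and Cdkn1c lie below IR-Con in all 12 gel libraries and Cdkn2d above it, while IR-Con replicate 3 holds the highest Cdkn2a value, 454 CPM.

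Cdkn1a encodes p21, the inhibitor that p53 induces after DNA damage. It was at 21.8, 23.8 and 24 CPM in the Gel libraries, 24.6, 24.9 and 21.8 CPM in those of Gel/IL-12, 32.8, 27.5 and 27.3 CPM in those of Gel/Laponite, and 24.5, 29 and 29.4 CPM in those of Gel/Laponite@IL-12, against 48.3, 50.5 and 62.5 CPM in those of IR-Con. Every gel library was below every IR-Con library, and the highest gel value came from Gel/Laponite. On the log2 scale the fold change was -1.06 (SE 0.0752; 95% interval -1.21 to -0.9; adjusted p = 1.63e-10, edgeR), so the level fell by 51.9%, and only 4.82% of all genes had a log2 fold change as low. In voom the adjusted p was 2.13e-08.

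Cdkn1b encodes p27, which holds cells in G1 and is removed by the SKP2 ubiquitin ligase. Its lowest, median and highest levels were 208, 225 and 232 CPM in the 12 gel libraries, against 281, 287 and 309 CPM in the 3 IR-Con libraries. In CPM there was no overlap, and the gel groups spread little around their means (0.258% to 4.19%). In FPKM, which the authors scaled otherwise, 1 Gel/IL-12 library at 58.9 exceeded the lowest IR-Con library at 56.6. The log2 fold change of the counts was -0.39 (SE 0.0375; interval -0.47 to -0.31; adjusted p = 1.93e-08, edgeR), so the level fell by 23.6%, and in voom the adjusted p was 1.93e-06.

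Cdkn1c encodes p57, an imprinted gene expressed from the maternal allele and needed for quiescence of several stem cells. It was the rarest of the inhibitors, with 38 to 81 counts per gel library and 83 to 105 per IR-Con library. Its lowest, median and highest levels were 2.5, 3.87 and 4.83 CPM in the gels, against 5.77, 6.08 and 6.38 CPM in IR-Con. The levels did not overlap, and their spread within the gel groups was 8.47% to 27.3%, where counting alone gives 12% to 13.4%. Its log2 fold change was -0.66 (SE 0.15; interval -0.97 to -0.34; adjusted p = 0.000871, edgeR), so the level fell by 36.6%. The call ended in voom, at a log2 fold change of -0.67 and an adjusted p of 0.0569.

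Cdkn2d encodes the INK4 protein p19, whose mRNA is known to vary through the cell cycle. It was at 15.5, 13.1 and 15.8 CPM in the Gel libraries, 17.3, 17 and 16.7 CPM in those of Gel/IL-12, 17.7, 15.1 and 16 CPM in those of Gel/Laponite, and 11.9, 15.5 and 14.8 CPM in those of Gel/Laponite@IL-12, against 7.22, 9.66 and 9.32 CPM in those of IR-Con. Every gel library was above every IR-Con library, and the Gel/Laponite@IL-12 library at 11.9 CPM came closest. This gave a log2 fold change of 0.83 (SE 0.106; interval 0.61 to 1.05; adjusted p = 1.19e-06, edgeR), a rise of 77.6%, and in voom the adjusted p was 0.00422. The gene Kri1, which starts 440 bases beyond the end of Cdkn2d on the same strand, was also higher, at 15.8 to 20 CPM in the gels and 8.86 to 10.2 CPM in IR-Con (log2 fold change 0.87, SE 0.083, adjusted p = 1.73e-08, edgeR). Whether reads that run past the end of Cdkn2d add to the count of Kri1 was not tested.

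The other INK4 genes turned on IR-Con replicate 3. Cdkn2a, which encodes p16 and ARF, was at 337, 352 and 373 CPM (lowest, median and highest) in the gels, against 241, 290 and 454 CPM in IR-Con replicates 1, 2 and 3. Its spread in IR-Con was 34% of the mean and at most 2.01% in a gel group, so the gel libraries lay between the IR-Con libraries. With all libraries the log2 fold change was 0.11 (SE 0.132; interval -0.19 to 0.4; adjusted p = 0.528, edgeR). Without IR-Con replicate 3 it was 0.41 (SE 0.0416; adjusted p = 5.18e-09), and voom without that library gave 0.42 (adjusted p = 4.68e-07).

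Cdkn2b encodes p15, which is known as a target of TGF-beta signaling, and was at 63.1, 68.1 and 76.8 CPM (lowest, median and highest) in the gels, against 52.6, 63 and 76.9 CPM in IR-Con replicates 1, 2 and 3. The IR-Con libraries enclosed all gel libraries. With all libraries the log2 fold change was 0.09 (SE 0.0698; interval -0.05 to 0.24; adjusted p = 0.263, edgeR), and without IR-Con replicate 3 it was 0.24 (adjusted p = 0.000216), or 0.25 in voom (adjusted p = 0.0227).

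Cdkn2c encodes p18, a limit on the division of stem and progenitor cells in mice, and was at 38.9, 42.4 and 44.7 CPM (lowest, median and highest) in the gels, against 33.7, 38.7 and 43.7 CPM in IR-Con replicates 1, 2 and 3. The 2 sets of libraries overlapped. With all libraries the log2 fold change was 0.12 (SE 0.0625; interval -0.01 to 0.25; adjusted p = 0.117, edgeR). Without IR-Con replicate 3 it was 0.21 (adjusted p = 0.00297), and voom without that library gave 0.22 with an adjusted p of 0.103. In FPKM the order of the IR-Con libraries differed, since replicate 3 had the lowest value, 12, and replicate 2 the highest, 15.2.

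Without IR-Con replicate 3, then, all 7 inhibitors passed edgeR's test, with the 3 Cip/Kip genes lower and the 4 INK4 genes higher in the gels, where 28.8% of all tested genes were lower and 29.2% higher. In voom without that library 6 of the 7 passed, 3 lower and 3 higher, and the background was 18.2% lower and 16.7% higher. Cdkn1c was then at an adjusted p of 0.0498 in voom. The calls on the Cip/Kip genes and Cdkn2d in edgeR were the same with and without that library, and the call on Cdkn2a, Cdkn2b and Cdkn2c rests on which IR-Con libraries enter. Without IR-Con replicate 1 in its place, the log2 fold changes were -0.07 for Cdkn2a, -0.03 for Cdkn2b and 0.03 for Cdkn2c, and none of these 3 passed. No label gives a ground for leaving out a library.

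**Figure D3:**
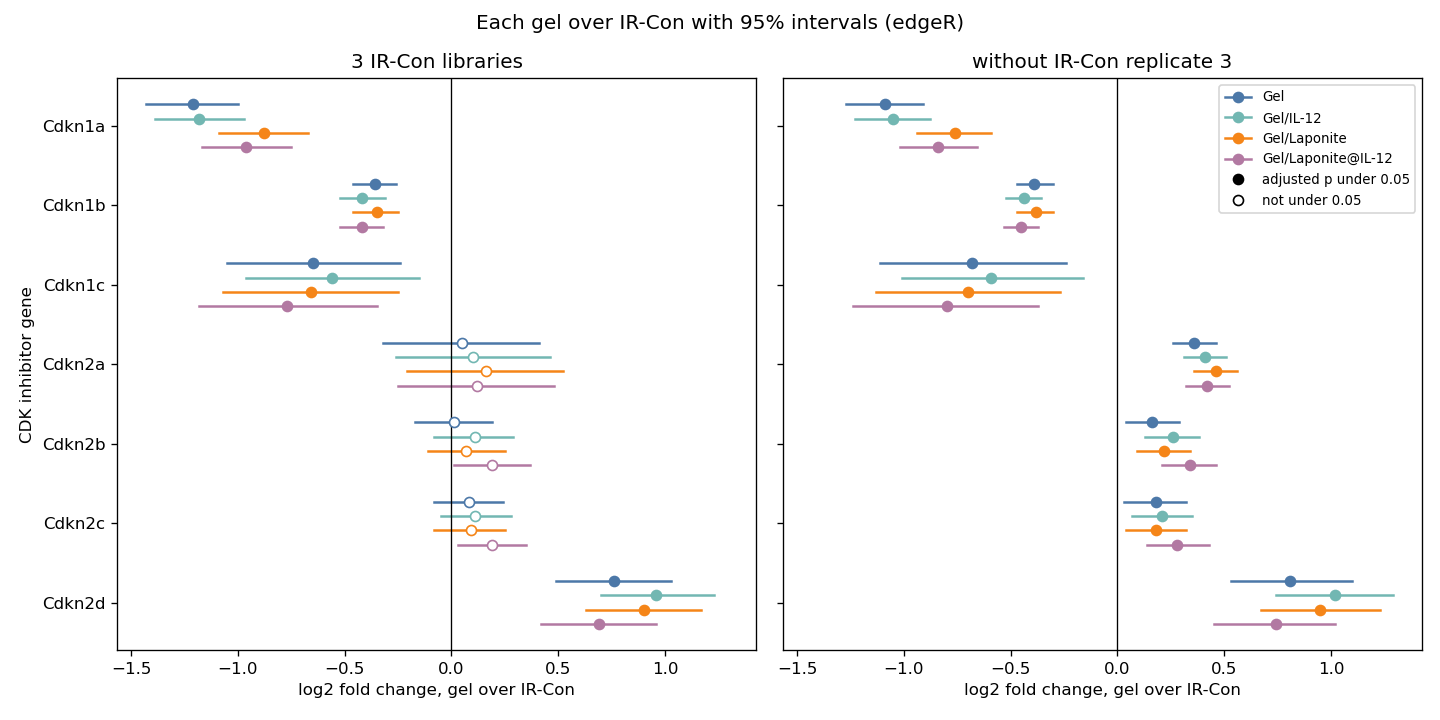
Log2 fold change of each CDK inhibitor in each gel over IR-Con with 95% intervals from edgeR, with all 3 IR-Con libraries (left) and without IR-Con replicate 3 (right), where filled points have an adjusted p under 0.05. The 3 Cip/Kip genes lie left of 0 and Cdkn2d right of 0 in both panels, while Cdkn2a, Cdkn2b and Cdkn2c are filled only in the right panel.

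Each gel was then set over IR-Con by itself, and these comparisons share the IR-Con libraries. In each of the 4, Cdkn1a, Cdkn1b and Cdkn1c fell and Cdkn2d rose in edgeR, and the other 3 did not pass. The background was 21.8% lower and 22.9% higher for Gel, 22.6% and 24% for Gel/IL-12, 21.7% and 23.2% for Gel/Laponite, and 21.5% and 23% for Gel/Laponite@IL-12. For Cdkn1a the log2 fold change was -1.21 (SE 0.103) in Gel, -1.18 (SE 0.102) in Gel/IL-12, -0.88 (SE 0.1) in Gel/Laponite and -0.96 (SE 0.101) in Gel/Laponite@IL-12. That of Cdkn1b was -0.36, -0.42, -0.35 and -0.42 in the same order, with SEs of 0.0486 to 0.0487. That of Cdkn1c was -0.65, -0.56, -0.66 and -0.77, with SEs of 0.194 to 0.199, and its adjusted p in edgeR ran from 0.00357 in Gel/Laponite@IL-12 to 0.0232 in Gel/IL-12. With voom Cdkn1c passed only in Gel/Laponite@IL-12 (adjusted p = 0.0427, against 0.0913 to 0.143 in the other gels). Leaving out Gel replicate 3 ended the Cdkn1c call in Gel (-0.5, adjusted p = 0.073, edgeR), and leaving out Gel/IL-12 replicate 1, Gel/IL-12 replicate 2 or IR-Con replicate 1 ended it in Gel/IL-12 (-0.51, -0.47 and -0.52, adjusted p = 0.0795, 0.0975 and 0.0525).

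For Cdkn2d it was 0.76 (SE 0.129) in Gel, 0.96 (SE 0.127) in Gel/IL-12, 0.9 (SE 0.128) in Gel/Laponite and 0.69 (SE 0.13) in Gel/Laponite@IL-12, and the gene passed in each under voom too. Cdkn2b and Cdkn2c were both at 0.19 in Gel/Laponite@IL-12, with adjusted p of 0.0852 and 0.0539 in edgeR, and at 0.01 to 0.11 in the other gels. Cdkn2a was at 0.05 to 0.16, with 95% intervals that reached from -0.32 to 0.52 over the 4 gels.

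The gels were next compared among themselves. The IR-Con libraries still enter these fits through the filter, the scaling and the shared estimate of the spread. Their spread over all genes, 17.1% against 3.52% to 4.06% in the gel groups, is thus part of the intervals below. For IL-12, the 2 gels that hold it were averaged and set over the 2 that do not. No inhibitor passed in edgeR, voom or DESeq2, with 0, 2 and 0 of them at an unadjusted p under 0.05, and 0.0192% of all genes (3) passed in edgeR. DESeq2 gave no adjusted p for Cdkn1a, Cdkn1c, Cdkn2c and Cdkn2d, so it could not call these genes. With only the 12 gel libraries in edgeR, 52 genes passed and again no inhibitor. Cdkn1a had a log2 fold change of -0.02 (95% interval -0.18 to 0.13), that of Cdkn1b -0.06 (-0.13 to 0.01) and that of Cdkn1c -0.01 (-0.31 to 0.29). That of Cdkn2a was 0.01 (-0.25 to 0.26), that of Cdkn2b 0.11 (-0.02 to 0.24), that of Cdkn2c 0.07 (-0.05 to 0.18) and that of Cdkn2d 0 (-0.18 to 0.17). A change of Cdkn1b by more than 0.13 on the log2 scale lies outside its interval, whereas for Cdkn1c changes up to 0.31 lie within.

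For Laponite, the gels with the nanoclay were set over those that lack it in the same way. In edgeR 0 inhibitors passed, 1 of them at an unadjusted p under 0.05, and 0.86% of all genes passed. That gene was Cdkn1a, at a mean of 29.2 ± 3.13 CPM in the Gel/Laponite group and 27.7 ± 2.74 CPM in the Gel/Laponite@IL-12 group, against 23.2 ± 1.24 CPM in Gel and 23.7 ± 1.73 CPM in Gel/IL-12 (SD, n = 3 each). The libraries with and without Laponite overlapped by the lowest Gel/Laponite@IL-12 value (24.5 CPM). Its log2 fold change was 0.28 (SE 0.0747; interval 0.12 to 0.43), with an unadjusted p of 0.00137 and an adjusted p of 0.115 in edgeR. It was called in voom (adjusted p = 0.0049), where 3.79% of all genes passed, and with only the 12 gel libraries in edgeR (adjusted p = 0.000197), where 5.52% of all genes passed and Cdkn2a was called too (0.06, adjusted p = 0.046). DESeq2 gave 0.0617 for Cdkn1a. The other 6 inhibitors had log2 fold changes of -0.11 to 0.07 for Laponite.

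For the interaction, which asks whether IL-12 acts differently with Laponite present, 0 inhibitors passed in edgeR, voom or DESeq2, with 1 at an unadjusted p under 0.05 in each. That gene was Cdkn2d, at 17 ± 0.317 CPM in the Gel/IL-12 group, 16.3 ± 1.33 CPM in the Gel/Laponite group and 14 ± 1.94 CPM in the Gel/Laponite@IL-12 group, against 14.8 ± 1.49 CPM in Gel (SD, n = 3 each). Its interaction was -0.41 (SE 0.171; interval -0.77 to -0.05; unadjusted p = 0.0258, adjusted p = 1, edgeR). Over all genes 0% passed in edgeR, with 631 at an unadjusted p under 0.05, 210 passing in voom and 25 in DESeq2. For the interaction too, DESeq2 gave no adjusted p for Cdkn1a, Cdkn1c, Cdkn2c and Cdkn2d and could not call them.

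**Figure D4:**
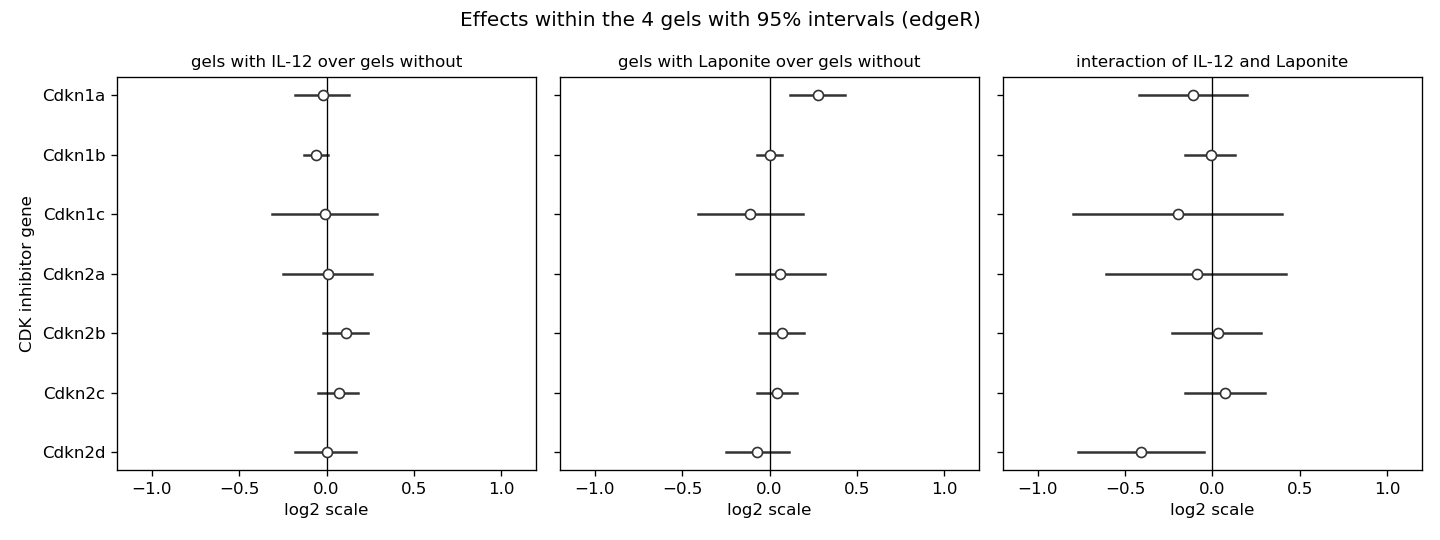
Log2 fold change of each CDK inhibitor with 95% intervals from edgeR for gels with IL-12 over gels without (left), for gels with Laponite over gels without (middle) and for their interaction (right). All points are open because no inhibitor had an adjusted p under 0.05, and the intervals of Cdkn1a for Laponite and of Cdkn2d for the interaction do not reach 0.

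Over the 12 gel libraries the inhibitors varied in different ways. As a description on log2 CPM, Cdkn1a and Cdkn2a had a Pearson r of 0.83, Cdkn2b and Cdkn2c 0.68, and Cdkn1a and Cdkn1b -0.03. Over all 15 libraries Cdkn1a and Cdkn1b had an r of 0.87 and Cdkn1b and Cdkn2d -0.9, where the points fall into gels and IR-Con and share those libraries. Among genes with a mean of at least 10 CPM, the 3 most like each inhibitor over 15 libraries were Plekho2, Rassf8 and Raly for Cdkn1a (r 0.974 to 0.976), Ptpn4, Sema3a and Mef2a for Cdkn1b (0.977 to 0.985), Nudc-ps1, Cox7a2 and Prkacb for Cdkn1c (0.874 to 0.904) and Atp5d, Cyc1 and Jun for Cdkn2a (0.965 to 0.97). They were Nr1h2, Cdkn2c and Mrps16 for Cdkn2b (0.89 to 0.922), Snx17, Nr1h2 and Cdkn2b for Cdkn2c (0.892 to 0.9), and Rps14, Ptgr1 and Eef1b2 for Cdkn2d (0.963 to 0.967). Cdkn2b and Cdkn2c were thus among the genes most like each other, although they lie apart on chromosome 4, while Cdkn2a was not among the 3 most like its neighbour Cdkn2b. The gap was small, since Cdkn2a and Cdkn2b had an r of 0.86, beside 0.89 for the third of those genes, Mrps16. Over the 12 gel libraries alone, every one of these r values was lower, from 0.321 (Cdkn2a with Cyc1) to 0.9 (Cdkn2d with Eef1b2).

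The kinases and cyclins that the inhibitors act on were higher in the gels throughout. All 12 of the list rose, where 27.4% of all genes did, with a median log2 fold change of 0.6, against -0.008 over all genes. All 12 passed in voom too, where 16% of all genes rose. Those with the smallest adjusted p were the mitotic cyclins Ccnb1 (1.29) and Ccnb2 (1.17), the S and G2 phase cyclin Ccna2 (1.04), and the kinase of mitotic entry Cdk1 (0.87). The G1 kinases changed less, with Cdk4 at 357 to 375 CPM in the gels and 273 to 319 CPM in IR-Con (log2 fold change 0.27, SE 0.0428), Cdk6 at 0.27 (SE 0.056) and Cdk2 at 0.27 (SE 0.0509). Ccnd1, the D-type cyclin that INK4 proteins keep from its kinase, was at 0.35 (SE 0.0412), and Ccne1, the partner of CDK2, was at 11.4 to 15.4 CPM in the gels and 4.38 to 7.04 CPM in IR-Con (1.39, SE 0.133).

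Further down the same pathway, 7 of 13 pocket proteins and E2F factors rose, 2 fell and 4 did not pass (median 0.21). Of all genes 27.4% rose and 27.6% fell. In voom 5 of the list rose and 1 fell, where 16% of all genes rose and 16.5% fell. E2f8 (0.89) and E2f7 (1.09), which are repressors in the E2F family, Tfdp1 (0.37), the partner of E2F factors, and the pocket protein Rbl1 (0.65) rose. Rb1, the substrate of CDK4 and CDK6, was at 13.5 to 18.6 CPM in the gels and 15.5 to 24.5 CPM in IR-Con (-0.28, SE 0.101, adjusted p = 0.0247, edgeR), and did not pass in voom (adjusted p = 0.202). All 10 genes of dividing cells rose (median 1.02), among them Mcm5 (1.29) of the replicative helicase, the mitotic kinase Plk1 (1.32), Top2a (0.77) and Cdc20 (1.41). The lower Cip/Kip mRNA and the higher Cdkn2d mRNA were thus measured in libraries with more mRNA of dividing cells, and the part of cell division in these differences was not tested. In bulk RNA, fewer cells with a transcript and less of it per cell cannot be told apart.

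**Figure D5:**
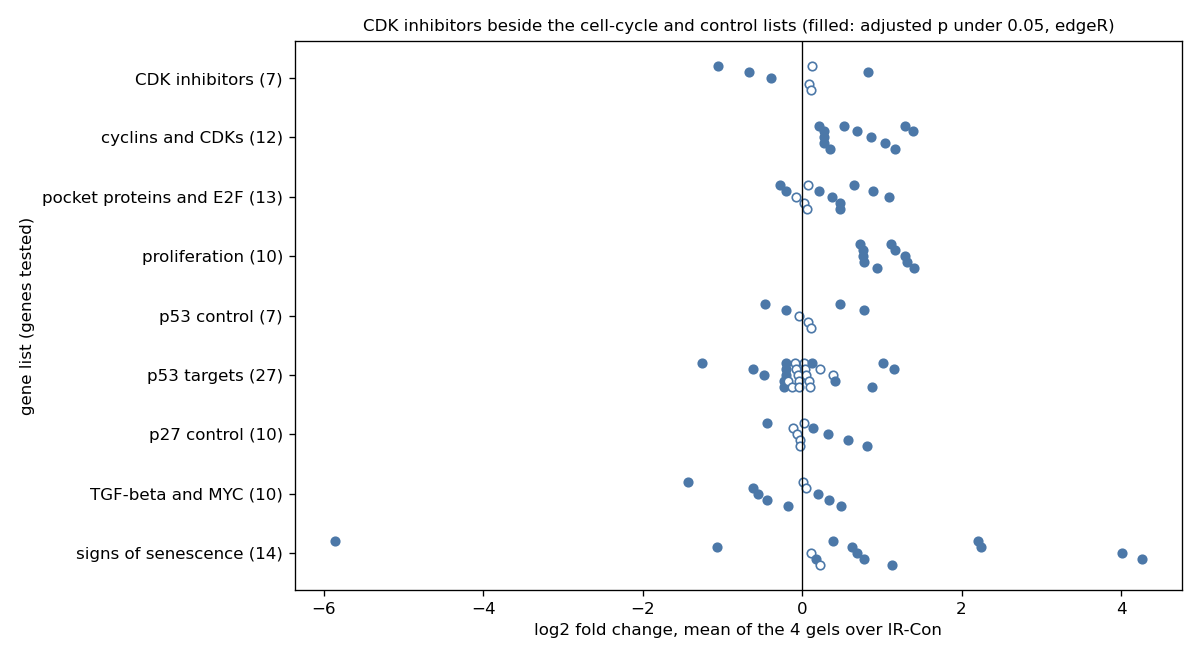
Log2 fold change of all gels together over IR-Con for each CDK inhibitor and for each tested gene of 8 lists around them, where filled points have an adjusted p under 0.05 in edgeR. All 12 cyclins and CDKs and all 10 proliferation genes lie right of 0, while the inhibitors and the 27 p53 targets fall on both sides.

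Around Cdkn1a, 2 of 7 genes of p53 control rose, 2 fell and 3 did not pass (median 0.07), which is near the 27.4% higher and 27.6% lower of all genes. Trp53 itself was at 50.2 to 56.8 CPM in the gels and 49.8 to 54.2 CPM in IR-Con (0.07, SE 0.048, adjusted p = 0.209, edgeR). The p53 inhibitors Mdm4 (-0.47) and Mdm2 (-0.2) fell and the checkpoint kinases Chek1 (0.78) and Chek2 (0.48) rose in edgeR, and in voom Mdm2 (adjusted p = 0.0617) and Chek2 (0.0872) did not pass. Of 27 other p53 targets 5 rose, 8 fell and 14 did not pass, with a median of -0.04. In voom 4 rose and 4 fell, where 16% of all genes rose and 16.5% fell. Eda2r, of the TNF receptor family, fell with a log2 fold change of -1.26 and Trp53inp1, a p53 cofactor in stress, with -0.62, whereas the death receptor Fas (1.15) and the nuclease Aen (0.88) rose. Cdkn1a, at -1.06, lay near the low end of that range.

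For Cdkn1b, 4 of 10 genes of p27 control rose, 1 fell and 5 did not pass (median 0). Of all genes 27.4% were higher and 27.6% lower. In voom 3 of the list rose and 1 fell, beside 16% higher and 16.5% lower of all genes. Skp2, which marks p27 protein for destruction, was at 39.9 to 46.3 CPM in the gels and 26.8 to 31.2 CPM in IR-Con (0.58, SE 0.0622, adjusted p = 1.02e-07, edgeR), and its cofactor Cks1b was at 0.81 (SE 0.0553). Among the FOXO factors, known activators of the Cdkn1b gene, Foxo1 fell (-0.44, SE 0.0596) and Foxo4 rose (0.33, SE 0.0529). Protein was not measured by these files.

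For Cdkn2b, 3 of 10 genes of TGF-beta signaling and MYC rose, 5 fell and 2 did not pass (median -0.08). Of all genes 27.4% were higher and 27.6% lower. In voom 2 of the list rose and 4 fell, beside 16% higher and 16.5% lower of all genes. The receptor Tgfbr2 was at 469 to 619 CPM in the gels and 1440 to 1490 CPM in IR-Con (-1.43, SE 0.0296), and the ligands Tgfb3 (-0.55) and Tgfb2 (-0.61) and the signal transducer Smad3 (-0.44) fell too. For Cdkn2a and Cdkn2b, 3 of 9 polycomb genes and their opponents rose, 1 fell and 5 did not pass (median 0.06), with the same counts of calls in voom. Cbx7, a repressor of the locus, fell (-0.57), and Ezh2 (0.44), Cbx8 (0.48) and Ring1 (0.52) rose. Around Cdkn1c, only 4 of 10 genes of the imprinted domain had enough counts. Of these Tssc4 (0.42) and Nap1l4 (0.1) rose and Kcnq1ot1 (-0.49), the long noncoding RNA that silences the domain on the paternal allele, fell, and in voom Nap1l4 did not pass.

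Genes used as signs of senescence, beside Cdkn1a and Cdkn2a themselves, were mixed in kind. Of 14, 10 rose, 2 fell and 2 did not pass (median 0.66), where 27.4% of all genes rose and 27.6% fell. In voom 8 rose and 2 fell, where 16% of all genes rose and 16.5% fell. These tallies add genes that senescent cells gain to genes that they lose, so they give no direction for senescence. The secreted chemokines Cxcl1 (4.26) and Ccl2 (2.21) and the cytokine Il6 (4.01), whose gain marks senescent cells, rose, and Il6 was at 8.44 to 12.3 CPM in the gels and 0.546 to 0.832 CPM in IR-Con. The chromatin protein Hmgb2, whose loss marks these cells and which was picked after its value was seen, rose too (1.13). So did Lmnb1 (0.78) and Hmgb1 (0.39), picked in the same way. Igfbp5, a secreted binding protein, was at 0.451 to 1.8 CPM in the gels and 45.7 to 51.5 CPM in IR-Con (-5.86). Igfbp3 was the other gene that fell (-1.07). These lists were chosen with results of these samples known, so their counts are not independent evidence of a direction.

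The nearest protein-coding genes on either side were also read. Beside Cdkn1a, Srsf3 was at 0.01 (adjusted p = 0.787, edgeR) and Rab44 at -0.56 (adjusted p = 0.0141, at most 4.31 CPM). Beside Cdkn1b, Gpr19 was at -0.32 (adjusted p = 0.0797) and Apold1 at -0.82 (adjusted p = 0.0453, at most 1.52 CPM). Beside Cdkn2a, Mtap was at -0.2 (adjusted p = 0.00667), and beside Cdkn2c, Faf1 was at -0.16 (adjusted p = 0.0591). The other flanking genes, apart from Kri1, Cdkn2a and Cdkn2b, had too few counts to be tested.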

How the data were processed

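RNA from 15 libraries of irradiated BM-MSCs was sequenced by a company, and the aligner, the counting tool and the test are not given in the sources used here. The authors deposited a raw read count and an FPKM value per gene and library in the same table. Counts were tested here, and the deposited FPKM served only to compare levels between genes. The labels give the genome build mm10 (GRCm38). The coordinates in the table are not those of GENCODE M21 on that build and were not used. The columns of group means, fold changes and p-values hold the authors' own comparisons and were not used. Genes were kept by filterByExpr (minimum count 10, total 15), scaled by TMM and fitted by edgeR (4.0.16, R 4.3.3) with a mean per group over all libraries and 10 residual degrees of freedom, and each of 8 contrasts got Benjamini-Hochberg adjusted p-values across the 15590 genes kept, with a threshold of 0.05. DESeq2 (1.42.0), limma voom (3.58.1), RLE scaling, no filter, a replicate block, subsets of libraries and leaving out each library were alternatives. The fits were tested on simulated counts with the same spread in every group, so the wider spread of IR-Con was not part of that test. Named genes were the 7 inhibitors, a few binding partners, flanking genes and the 3 genes most alike. Each list also gave up to 4 genes, taken by adjusted p. Hmgb2, Hmgb1, Lmnb1, Igfbp3, Eng, Lepr and the blood cell markers with too few counts to be tested were added after their values were seen. Members, lists and motifs were chosen with earlier results of these data known. At this depth counting alone gives 1.29% to 13.4% error per level in a gel library, for Cdkn2a and Cdkn1c, and intervals cover the libraries here.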

Additional observations from a re-analysis of the deposited data

How the results depend on the processing

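Of 889 values of the 7 inhibitors recomputed under an alternative, 848 stayed on the same side of the threshold, 11 lost a call and 30 gained one. Among called values 0 reversed, whereas some values without a call changed sign. IR-Con replicate 3 decided the calls on Cdkn2a, Cdkn2b and Cdkn2c. Leaving out each library in turn, the log2 fold change of all gels over IR-Con ran from -0.07 to 0.41 for Cdkn2a, from -0.03 to 0.24 for Cdkn2b and from 0.03 to 0.21 for Cdkn2c, with the highest value of each without IR-Con replicate 3 and the lowest without replicate 1. The number of inhibitors called then ran from 4 to 7 for all gels, 3 to 7 for Gel, 3 to 7 for Gel/IL-12, 4 to 7 for Gel/Laponite and 4 to 7 for Gel/Laponite@IL-12. Over all genes the calls moved as well. In the same order they ran from 8035 to 9220, 5993 to 8131, 6298 to 8335, 6035 to 8124 and 5914 to 8026. Voom without IR-Con replicate 3, an alternative chosen after seeing the data, gave 0.42 for Cdkn2a and 0.25 for Cdkn2b. It called 7 inhibitors in Gel/Laponite@IL-12, beside 5065 of 15908 tested genes. With all libraries voom gave -0.67 for Cdkn1c and ended its call. For Laponite, the number of inhibitors called was 1 in voom, 1 without the filter on low counts and 2 with only the 12 gel libraries.

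Over all genes, all gels against IR-Con gave 8573 calls in edgeR and 5062 in voom, and Laponite gave 134 in edgeR, 591 in voom, 194 without the filter, 839 with only the 12 gel libraries and 71 to 92 when a library was left out. IL-12 gave 3 in edgeR, 27 in voom, 13 in DESeq2, 6 without the filter and 52 with only the gels, and the interaction gave 0, 210, 25, 17 and 562. Replicate numbers are shared by the groups, but they did not pair the libraries, since the deviations of same-numbered libraries correlated at -0.072 to 0.041 and 2 of 15 libraries correlated best with their own number. A fit with the replicate number as a block gave 8434 calls for all gels against IR-Con and changed no call on an inhibitor. Depth limits Cdkn1c most, with 38 to 105 counts a library. In Gel/Laponite@IL-12 without the filter, Cdkn2b (0.21, adjusted p = 0.0152, edgeR) and Cdkn2c (0.22, adjusted p = 0.0393) passed.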
